A study of Mus musculus with 7 samples.

Results

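Transcript levels of MondoA, its partner Mlx and the alpha-arrestin genes were followed in mouse embryonic fibroblasts (MEFs) kept in complete medium or exposed to 6 kinds of stress. The set was chosen by gene symbol and holds 7 genes of the 49382 in the expression table, on 8 of its rows because Arrdc2 stands on 2. They are the alpha-arrestins Txnip, Arrdc1, Arrdc2, Arrdc3 and Arrdc4, and the transcription factor genes Mlxip, which encodes MondoA, and Mlx. All 7 libraries came from wild type primary fibroblasts taken at embryonic day 13.5 to 14.4 and used between passage 3 and passage 7, with 1 library for each condition. The control was cultured in complete DMEM, and the labels give no treatment time for it. Glucose depletion was 10 hours in glucose-free DMEM and glutamine depletion 10 hours in glutamine-free DMEM. Hypoxia was 10 hours at 0.1% oxygen. ER stress was 10 hours of 1 µM thapsigargin, which blocks the calcium pump of the endoplasmic reticulum. Oxidative stress was 3 hours of 10 µM sodium arsenite, and osmotic stress was 3 hours of 100 mM added NaCl. There were no replicates, so no difference below could be set against a spread between cultures and no p-value is given. The 6 treated libraries share the same control library, and the 3-hour and 10-hour exposures cannot be told apart from the kinds of stress they belong to. In bulk RNA of a primary culture, fewer cells of a type and less RNA per cell cannot be told apart.

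MondoA is a glucose-responsive transcription factor of the basic helix-loop-helix leucine zipper family. It binds DNA as a dimer with Mlx, and it moves to the nucleus and becomes active when glucose 6-phosphate accumulates. Txnip, the thioredoxin-interacting protein, is its best known target, and it lowers glucose uptake by driving glucose transporters off the cell surface. Txnip is also the founding thioredoxin-binding member of the alpha-arrestins, adaptors that carry short proline-rich motifs and recruit NEDD4-family ubiquitin ligases to membrane proteins.

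Levels are given as TPM, the length-corrected share of a transcript in its library on a scale that totals 1000000, so that levels may be compared between genes. A change is the difference of log2(TPM + 1) between a treated library and the control, which understates the change of genes with few transcripts. A gene is said to have risen or fallen where this change was more than 2-fold, that is beyond 1 or -1. The comparison set is the 12909 genes whose mean over all libraries was 2 TPM or higher, and all 7 genes passed this filter. Oxidative, ER, hypoxic and osmotic stress were visible in genes known for them. Hmox1 was at 6055 TPM in oxidative stress against 266 in the control, and Hspa5 at 12611 against 1165 in ER stress. Bnip3 was at 797 against 26.7 in hypoxia, and Akr1b3 at 575 against 90.5 in osmotic stress. No such gene was looked at for glucose or glutamine depletion. All 9 fibroblast markers were at 6.42 TPM or more in every library. Their sum ran from 6166 TPM in ER stress to 12813 in hypoxia. The 6 macrophage and blood markers summed to 6.76 to 14.6 TPM, the 4 epithelial markers to 3.88 to 11.6 and the 4 endothelial markers to 2.94 to 7.31. The 4 muscle markers summed to 80.6 TPM in the control, 152 in glucose depletion and 37.5 in ER stress, nearly all of it Acta1, while Myod1 did not exceed 0.107 TPM. The part of Acta1-expressing cells, and of the lower fibroblast markers in ER stress, in the results for those conditions was not tested.

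Both transcription factor genes were expressed in every library, and neither rose nor fell under any stress. Mlxip (ENSMUSG00000038342, GRCm38 chr5:123394798-123457932, plus strand) was at 11.0 TPM in the control, 13.2 in glucose depletion, 12.7 in glutamine depletion, 11.9 in hypoxia, 16.2 in ER stress, 10.3 in oxidative stress and 10.3 in osmotic stress. Its highest level was 1.58 times its lowest, and its changes ran from -0.09 in osmotic stress to 0.52 in ER stress. Mlx (ENSMUSG00000017801, chr11:101087277-101092207, plus strand) was at 49.9 TPM in the control, 47.7 in glucose depletion, 37.0 in glutamine depletion, 46.3 in hypoxia, 51.2 in ER stress, 48.5 in oxidative stress and 33.2 in osmotic stress. Its highest level was 1.54 times its lowest, and its most negative changes were -0.57 in osmotic stress and -0.42 in glutamine depletion. Mlx transcripts outnumbered those of Mlxip in all 7 libraries, by 4.52 to 1 in the control and by between 2.91 to 1 in glutamine depletion and 4.70 to 1 in oxidative stress. The gene body of Mlx overlaps Psmc3ip on the other strand, which was at 6.86 to 14.8 TPM. Counting with the default settings of Kallisto does not use strand, so reads of overlapping genes can be shared. Mlxipl, the gene of the MondoA relative ChREBP, was between 0.0441 and 0.437 TPM and did not pass the filter.

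Txnip was the most abundant alpha-arrestin transcript in 6 of the 7 libraries, all but glucose depletion, and varied more than any other gene of the set. In osmotic stress it was hardly above Arrdc3 and Arrdc1, at 7.22 TPM against 7.20 and 7.18. Txnip (ENSMUSG00000038393, chr3:96557957-96561883, plus strand) was at 70.7 TPM in the control, 16.1 in glucose depletion, 68.7 in glutamine depletion, 91.7 in hypoxia, 120 in ER stress, 44.9 in oxidative stress and 7.22 in osmotic stress. The lowest levels were those of osmotic stress and glucose depletion, and the highest that of ER stress, 16.6 times the lowest. In glucose depletion Txnip fell to 22.7% of the control, a change of -2.07. Only 12 of the 11300 protein-coding genes in the comparison set had a lower change there (0.106%), or 188 of all 12909 (1.46%). Removal of glutamine, the other nutrient withdrawn for 10 hours, left Txnip with a change of -0.04.

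The lowest level came with 3 hours of added NaCl, where Txnip fell to 10.2% of the control, a change of -3.12. In that library 10 protein-coding genes (0.0885%) and 123 of all genes compared (0.953%) had a lower change. The other 3 conditions moved Txnip by less than 2-fold. Its changes were 0.75 in ER stress, where 13.8% of the genes compared were higher, 0.37 in hypoxia, where 13.1% were higher, and -0.65 in oxidative stress, where 13.7% were lower. The antisense gene Gm15441, which overlaps Txnip on the minus strand, was at 0.550 TPM in the control, 0.646 in glucose depletion and 1.27 in osmotic stress, with a highest value of 1.47.

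**Figure D1:**
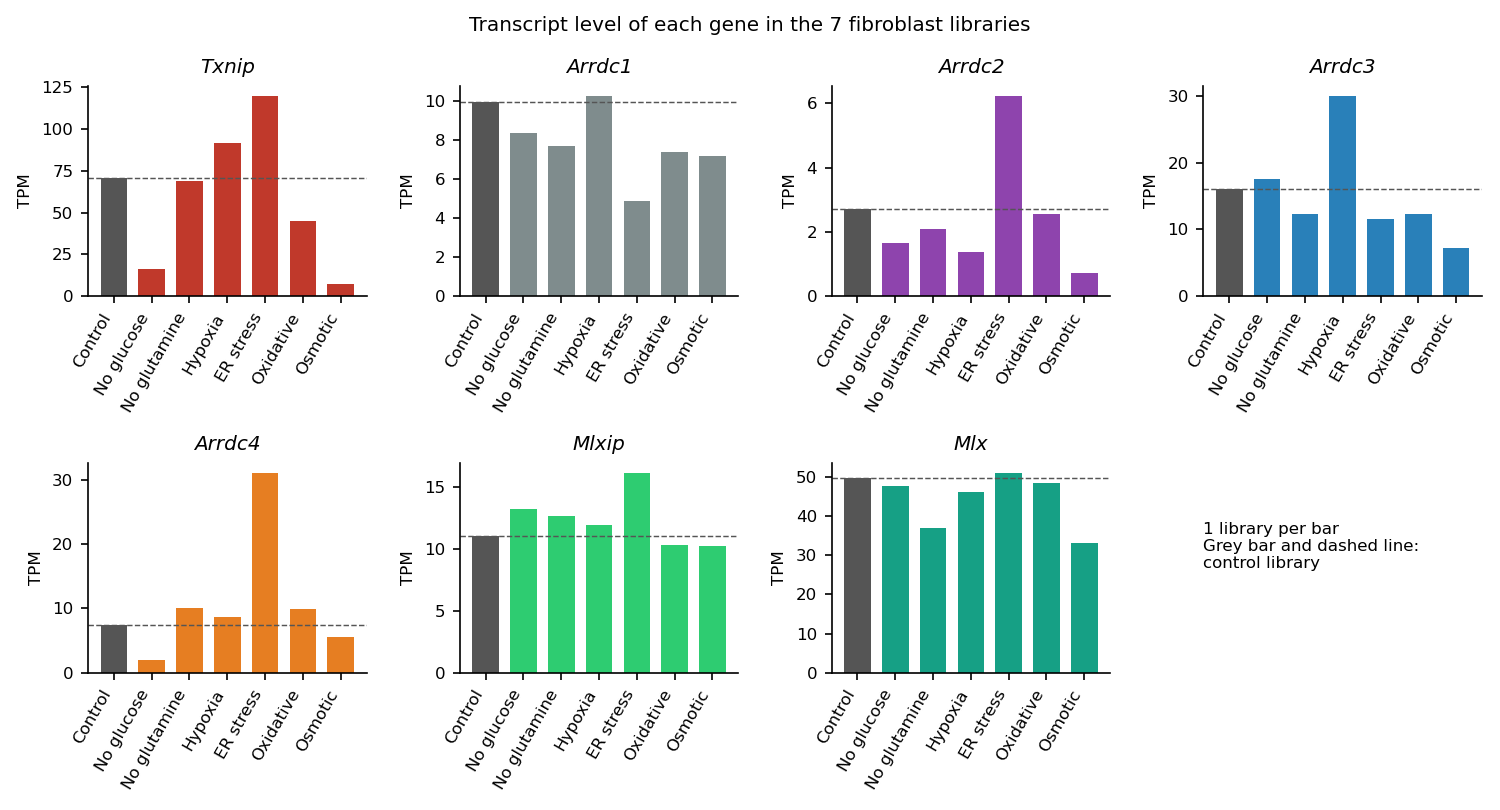
Transcript level in TPM of each of the 7 genes, 1 bar per library, with the control as a grey bar and a dashed line; each panel has its own axis from 0. Txnip is lowest in osmotic stress (7.22) and glucose depletion (16.1), Arrdc4 is highest in ER stress (31.1), and Mlxip and Mlx stay within 1.58 and 1.54 times their lowest level.

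The Txnip promoter carries a pair of sites of the kind that MondoA and Mlx are known to bind, and it is printed here beside the promoter of Arrdc4 because these were the arrestin genes that fell without glucose. In both Txnip sequences, capitals mark matches to CACGNG spaced by 5 bases (tandem pair) and to CCAAT on either strand, which reads ATTGG on the minus strand. In the Arrdc4 promoter, capitals mark CCAAT on either strand and the E-box CACGTG. In the last, printed for the E-box upstream of Mlx itself, they mark CACGTG. The sequences are from RefSeq on GRCm38.p6 and cover chr3:96557707-96557946 on the plus strand, chr7:68749249-68749488 on the minus strand, chr3:96557872-96557888 on the plus strand and chr11:101087238-101087267 on the plus strand.
Txnip promoter: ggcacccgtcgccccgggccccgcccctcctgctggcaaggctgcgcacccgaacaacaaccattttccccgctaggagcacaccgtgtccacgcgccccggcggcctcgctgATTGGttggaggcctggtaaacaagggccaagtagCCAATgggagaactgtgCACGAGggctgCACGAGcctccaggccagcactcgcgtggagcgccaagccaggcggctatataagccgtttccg
Arrdc4 promoter: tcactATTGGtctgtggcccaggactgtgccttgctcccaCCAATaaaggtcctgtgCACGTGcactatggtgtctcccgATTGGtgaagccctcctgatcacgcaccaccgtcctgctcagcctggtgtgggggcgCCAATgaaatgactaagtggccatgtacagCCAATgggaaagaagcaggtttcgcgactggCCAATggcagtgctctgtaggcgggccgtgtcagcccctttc
Txnip pair: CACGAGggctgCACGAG
Mlx E-box: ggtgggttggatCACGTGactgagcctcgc

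All 7 genes had an entry among the RefSeq promoter windows, which run from 250 bases before to 50 bases after an annotated start. They gave 9 windows, since Arrdc3 has 3 starts. The tandem pair, searched on both strands as CACGNG followed after 5 bases by CACGNG, stood at -85 to -69 of Txnip and in no other window of the set. It was in 16 of all 32851 windows (0.0487%). An inverted pair, CACGNG followed after 5 bases by CNCGTG, was in 15 windows (0.0457%) and in none of the set. The E-box CACGTG, which is also a match to CACGNG, was in 7.15% of all windows, and in the set it stood at -193 to -188 of Arrdc4 and at -40 to -35 of Mlx. CCAAT, the core of the NF-Y site, was in 37.4% of windows. Txnip had 2 matches, just upstream of the tandem pair, and Arrdc4 had 6, a number reached in 26 windows (0.0791%). A match of letters is a description and no measure of binding, and a site outside these windows was not looked for.

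**Figure D2:**
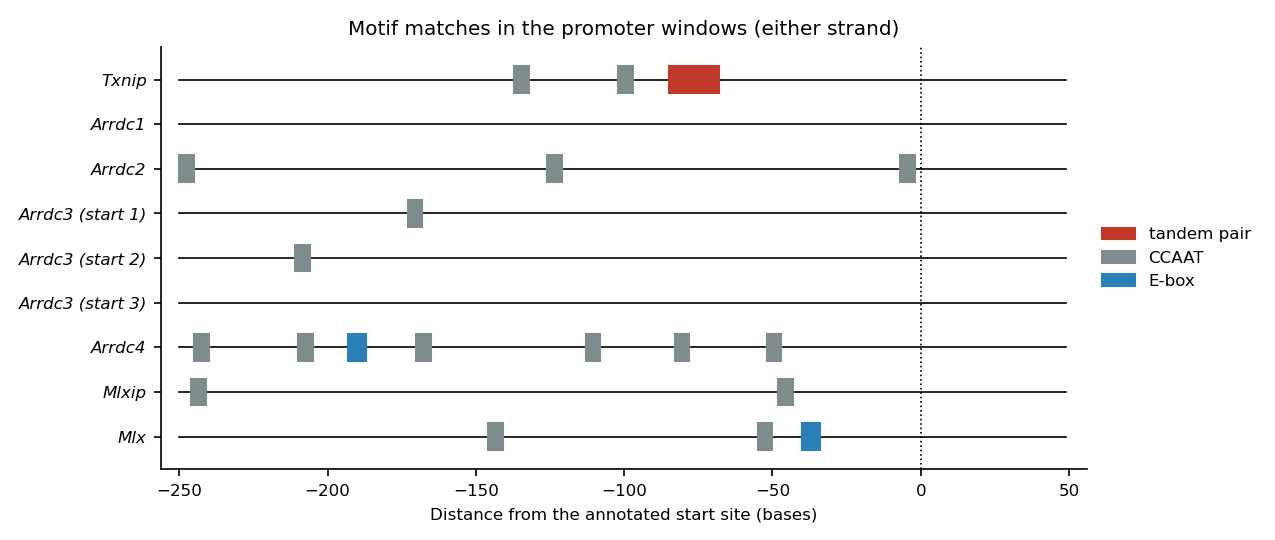
Positions of the searched motifs in the 9 promoter windows, in bases from the annotated start (dotted line), with the tandem pair in red, CCAAT in grey and the E-box in blue, on either strand. Only Txnip holds the tandem pair (-85 to -69), Arrdc4 and Mlx hold an E-box, and the windows of Arrdc1 and of the last Arrdc3 start hold none of the motifs.

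The 16 windows with a tandem pair belong to 15 genes, of which 9 passed the expression filter. This listing was made after the values of Txnip were known. In glucose depletion, where 2.41% of all genes compared fell, the 8 others had changes from -0.49 (Irak1bp1) to 0.25 (Fem1b). In osmotic stress, where 8.76% fell, they ran from -0.98 to 0.73. In glutamine depletion, where Txnip had a change of -0.04, Fnip1 fell (-1.12), and in ER stress Nfkb2 rose (1.38). In hypoxia and oxidative stress none of the 9 passed 2-fold. With so few genes, nothing is read from these counts about the tandem pair.

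Arrdc4, the alpha-arrestin closest to Txnip in its reported action on glucose uptake, fell with Txnip in glucose depletion and rose in ER stress. Arrdc4 (ENSMUSG00000042659, chr7:68736995-68749241, minus strand) was at 7.38 TPM in the control, 1.97 in glucose depletion, 10.0 in glutamine depletion, 8.70 in hypoxia, 31.1 in ER stress, 9.82 in oxidative stress and 5.54 in osmotic stress. Glucose depletion gave the lowest level and ER stress the highest, 15.8 times apart. The level without glucose was 26.7% of the control, a change of -1.50. A lower change was seen for 22 of the 11300 protein-coding genes (0.195%), or 221 of all 12909 (1.71%). When 5 TPM instead of 1 TPM were added before the logarithm, that change was -0.83, and Arrdc4 no longer counted as fallen. In ER stress Arrdc4 was 4.22 times the control, a change of 1.94, and 333 of the 12909 genes (2.58%) had a higher change.

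The 2 genes parted in osmotic stress. Txnip fell by 3.12 on the log2 scale, while Arrdc4 had a change of -0.36, which 31.9% of the genes compared went below. The ratio of Txnip to Arrdc4 transcripts was 9.59 in the control and 8.16 in glucose depletion, where both levels were low. It was 1.30 in osmotic stress and 3.85 in ER stress. Oxidative stress, the other 3-hour exposure, had a ratio of 4.57, with a change of 0.37 for Arrdc4 beside -0.65 for Txnip.

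Arrdc3, which acts on beta-adrenergic receptors and is known as a tumour suppressor in breast cells, was the most abundant alpha-arrestin after Txnip in the control. Arrdc3 (ENSMUSG00000074794, chr13:80883384-80896042, plus strand) was at 16.1 TPM in the control, 17.6 in glucose depletion, 12.3 in glutamine depletion, 30.0 in hypoxia, 11.5 in ER stress, 12.4 in oxidative stress and 7.20 in osmotic stress. Hypoxia was the highest, at 1.87 times the control and a change of 0.86, which does not reach 2-fold but which only 4.38% of the genes compared exceeded. Osmotic stress was the lowest, and Arrdc3 fell there with a change of -1.06. With the changes centred on the median gene of that library this became -0.94, and with a pseudocount of 5 TPM -0.79. Glucose depletion, in which Txnip and Arrdc4 fell, left Arrdc3 with a change of 0.13.

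Arrdc2, a less studied adaptor of the family, stands on 2 rows. On 1 of them it had the lowest mean level of the alpha-arrestins over the 7 libraries, 2.48 TPM, though not the lowest level in ER stress. Arrdc2 (ENSMUSG00000002910, chr8:70835129-70839720, minus strand) was at 2.72 TPM in the control, 1.66 in glucose depletion, 2.10 in glutamine depletion, 1.38 in hypoxia, 6.23 in ER stress, 2.54 in oxidative stress and 0.736 in osmotic stress. ER stress gave the highest level and osmotic stress the lowest. On the row of this identifier Arrdc2 fell in osmotic stress, with a change of -1.10, and its change was 0.96 in ER stress, just under 2-fold. A second row of the table bears the same symbol under another identifier (ENSMUSG00000110906) with the same value in all 7 libraries. Every library totals 1000000 TPM with both rows counted, so each row holds only a part of the level under this symbol. Of 99 symbols that stand on several rows above 1 TPM, 76 had such identical rows. Summed over both rows, Arrdc2 was at 5.44 TPM in the control and 12.5 in ER stress, a change of 1.06, so that it rose by this reading, and at 1.47 in osmotic stress, a change of -1.38. Its summed level in glucose depletion was 3.33 TPM, above the 1.97 of Arrdc4. The fall in osmotic stress was not reached on the single row with centred changes (-0.98) or with a pseudocount of 5 TPM (-0.43).

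Arrdc1, which recruits the budding machinery that releases vesicles from the plasma membrane, neither rose nor fell. Arrdc1 (ENSMUSG00000026972, chr2:24925352-24935252, minus strand) was at 9.95 TPM in the control, 8.36 in glucose depletion, 7.67 in glutamine depletion, 10.2 in hypoxia, 4.85 in ER stress, 7.37 in oxidative stress and 7.18 in osmotic stress. ER stress was the lowest, with a change of -0.90 (48.8% of the control), opposite in sign to the changes of Txnip, Arrdc2 and Arrdc4 in that library. With a pseudocount of 0.1 TPM the change was -1.02, past 2-fold. The other 5 changes of Arrdc1 lay between -0.42 and 0.04. With 1 library for each condition, no neighbours in the order of levels of any of the 7 genes can be told apart by a spread.

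The makeup of the alpha-arrestin transcripts differed between libraries. Summed over Txnip and Arrdc1 to Arrdc4, they came to 107 TPM in the control, 45.7 in glucose depletion, 101 in glutamine depletion, 142 in hypoxia, 173 in ER stress, 77.0 in oxidative stress and 27.9 in osmotic stress. The sum was thus 3.83 times lower than the control in osmotic stress, 2.34 times lower in glucose depletion and 1.62 times higher in ER stress. Arrdc2 entered it on 1 of its 2 rows. With both rows it was 110 TPM in the control, 47.4 in glucose depletion, 180 in ER stress and 28.6 in osmotic stress. The shares and the sums without Txnip below also count 1 row of Arrdc2. Txnip made up 66.2% of the sum in the control and between 58.3% and 69.0% in glutamine depletion, hypoxia, ER stress and oxidative stress. It made up 35.2% in glucose depletion and 25.9% in osmotic stress.

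In glucose depletion Arrdc3 was the largest contributor at 38.5%, against 15.0% in the control, with nearly the same level. In osmotic stress 4 genes had similar shares, with Txnip at 25.9%, Arrdc3 and Arrdc1 at 25.8% each and Arrdc4 at 19.9%. In ER stress the share of Arrdc4 was 17.9%, against 6.90% in the control, and that of Arrdc3 was 6.64%. Without Txnip the sum of the other 4 arrestins was 36.1 TPM in the control, 29.6 in glucose depletion, 50.3 in hypoxia, 53.7 in ER stress and 20.7 in osmotic stress. Osmotic stress was thus the lowest with Txnip left out as well, at 0.572 times the control.

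**Figure D3:**
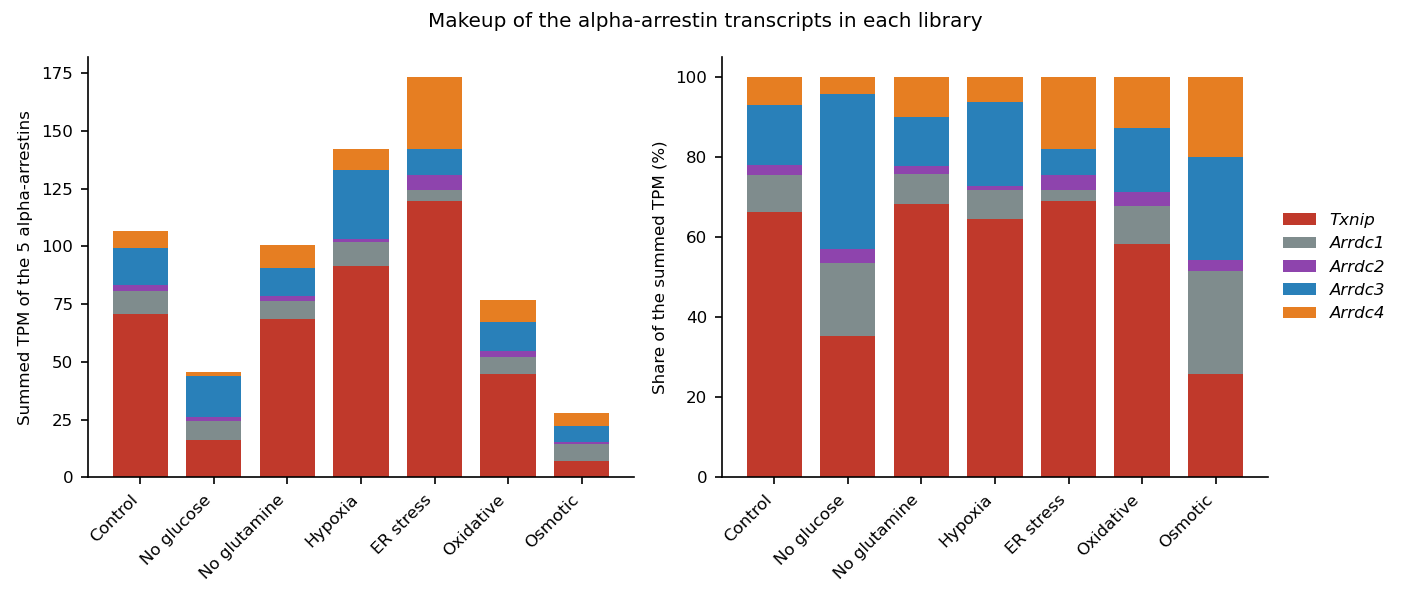
Summed TPM of the 5 alpha-arrestins in each library (left, stacked by gene) and the share of each gene in that sum in percent (right), 1 bar per library. Arrdc2 is counted on 1 of its 2 rows. The sum is 107 TPM in the control, 45.7 in glucose depletion and 27.9 in osmotic stress, and the Txnip share is 66.2%, 35.2% and 25.9% in those libraries.

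Counted condition by condition, most of the set stayed within 2-fold. In glucose depletion 2 of the 7 genes fell (Txnip and Arrdc4) and 0 rose, beside 2.41% of all genes compared that fell and 1.83% that rose. The median change of the set was -0.23, against -0.02 for all genes compared. In glutamine depletion 0 rose and 0 fell, beside 3.21% of all genes in the upward and 3.21% in the downward direction. In hypoxia again 0 rose and 0 fell, beside 3.57% of all genes that rose and 2.64% that fell. The medians of the set in these libraries were -0.26 and 0.10, against -0.09 and -0.05 for all genes.

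In ER stress, which moved the most genes, 1 of the 7 rose (Arrdc4) beside 8.60% of all genes, and 0 fell beside 11.0%. With both Arrdc2 rows summed, 2 rose there. The median of the set there was 0.52 against 0 for all genes. In oxidative stress 0 rose and 0 fell, beside 3.94% and 4.85% of all genes, with a median of -0.09 against -0.16. In osmotic stress 0 rose beside 3.08% of all genes, and 3 fell (Txnip, Arrdc2 and Arrdc3) beside 8.76%. All 7 genes had a change below 0 in osmotic stress, as did most genes compared, of which 52.5% lay below the -0.09 of Mlxip. After centring on the median of all genes the change of Mlxip was 0.03. The median of the set was -0.57 against -0.12 for all genes. Of the 3 that fell, only Txnip also passed 2-fold after centring on that median or with a pseudocount of 5 TPM. These alternatives used 1 row of Arrdc2, whose change with both rows summed was -1.38.

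**Figure D4:**
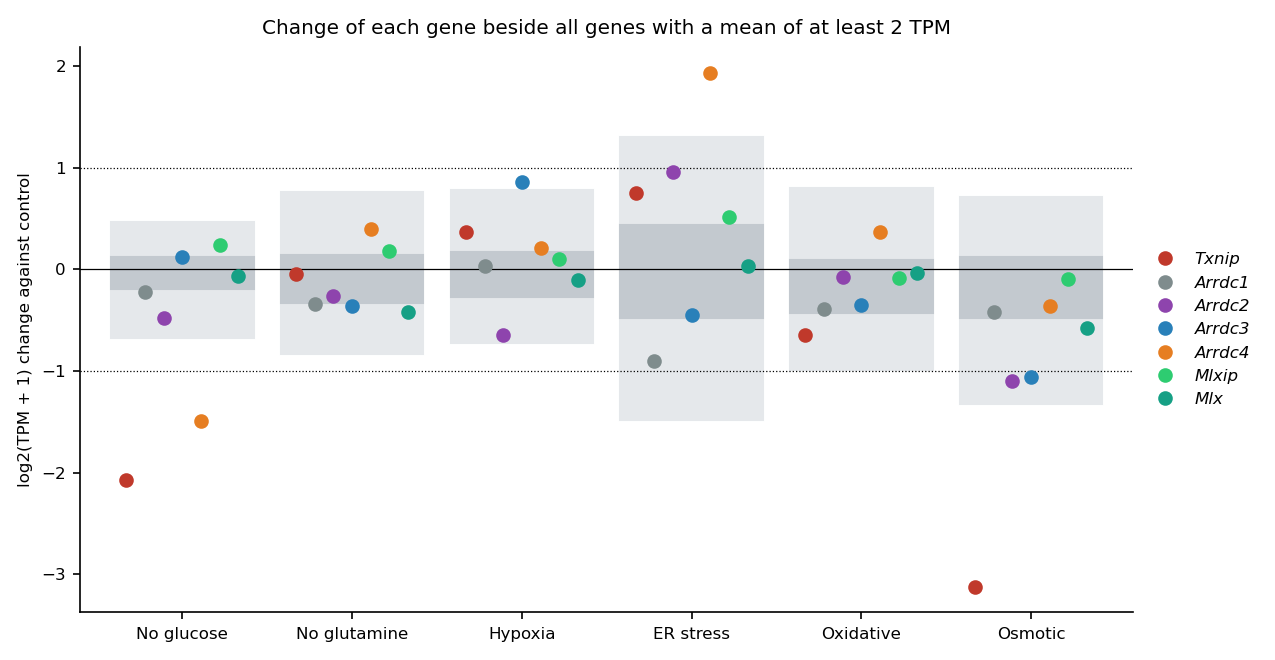
Change of each of the 7 genes against the control on the log2(TPM + 1) scale, 1 point per gene and condition; dark and light grey bands hold the middle 50% and middle 90% of the 12909 genes compared, and dotted lines mark 2-fold. Txnip lies far below the bands in glucose depletion (-2.07) and osmotic stress (-3.12), Arrdc4 lies below them in glucose depletion (-1.50) and above them in ER stress (1.94), and Mlx and Mlxip stay within 2-fold of the control throughout.

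Among the other genes, the levels most like those of Txnip over the 7 libraries were sought by Pearson's r of log2(TPM + 1). Of 5120 genes that averaged 5 TPM or more and ranged over more than 2-fold, the 5 with the highest r were Cry2 (r = 0.964, Spearman's rho = 0.893), Ulk3 (0.960, 0.821), the processed pseudogene Gm1943 (0.959, 0.893), Ezh1 (0.958, 0.929) and the lincRNA AC241534.3 (0.950, 0.964). Cry2 encodes a repressor of the circadian clock, Ulk3 a kinase and Ezh1 a histone H3 methyltransferase. Reads of a pseudogene can be shared with its parent gene, so the level of Gm1943 is uncertain. The points share the scaling of TPM, and the 2 libraries with low Txnip lie apart from the others. Without glucose depletion and osmotic stress, r over the remaining 5 libraries was 0.748 for Cry2, 0.628 for Ulk3, 0.722 for Gm1943, 0.836 for Ezh1 and 0.881 for AC241534.3. None of them fell as far as Txnip. Cry2 was at 10.1 TPM in the control, 6.94 in glucose depletion and 3.68 in osmotic stress, and its change was -0.48 without glucose. Ulk3 was at 13.9, 7.46 and 3.09 TPM in the same libraries, with changes of -0.81 and -1.86.

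Over all 7 libraries the genes of the set had lower r with Txnip than these 5, which were picked for the highest values. Arrdc4 had r = 0.717 (rho = 0.679) and Arrdc2 r = 0.712 (rho = 0.607) with Txnip, and 543 and 564 of the 5120 genes had a higher r. Arrdc2 averaged 2.48 TPM on 1 row, less than was asked of those 5120 genes. Its r was 0.496 with osmotic stress left out and 0.891 with hypoxia left out. For Arrdc4, r was 0.643 with glucose depletion left out and 0.873 with osmotic stress left out. Mlx had r = 0.584 (rho = 0.607), but -0.00 with osmotic stress left out. Arrdc3 had r = 0.485 (rho = 0.214), and -0.03 without that library. Mlxip had r = 0.470 (rho = 0.536), but 0.207 without ER stress and 0.226 without osmotic stress. Arrdc1 had r = -0.05 (rho = 0.143), but 0.609 without ER stress. Over the 5 libraries other than glucose depletion and osmotic stress, r was 0.855 for Mlxip, 0.637 for Arrdc4, 0.436 for Arrdc2, 0.220 for Arrdc3, 0.201 for Mlx and -0.33 for Arrdc1. The value of Mlxip was above those of Cry2, Ulk3, Gm1943 and Ezh1 in these 5 libraries, so the order of likeness depended on which libraries were used. Mlxip levels ranged over only 1.58-fold, less than was asked of the 5120 genes, and those genes were not ranked over these 5 libraries.

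Of the genes that act with or beside MondoA and the arrestins, 34 passed the expression filter. In glucose depletion 0 of them rose and 0 fell, beside 1.83% and 2.41% of all genes compared, and nothing is read from a count of 0 beside shares this low. In glutamine depletion 4 rose and 0 fell, beside 3.21% in each direction, and in hypoxia 8 rose and 0 fell, beside 3.57% and 2.64%. In ER stress 3 rose and 2 fell, beside 8.60% and 11.0%. In oxidative stress 3 rose and 0 fell, beside 3.94% and 4.85%, and in osmotic stress 0 rose and 4 fell, beside 3.08% and 8.76%. Of the MAX and MLX network, the family of dimer partners that share E-box binding with MondoA, 8 of 10 genes passed the expression filter. Myc, the growth-promoting member, rose in glutamine depletion (56.8 to 144 TPM, change 1.33) and in ER stress (to 265 TPM, 2.20). Mxi1, a MAX-dependent repressor, rose in hypoxia (4.64 to 27.0 TPM, 2.31). The repressor Mxd3 fell in ER stress (-1.10) and osmotic stress (-1.18). Mnt, a repressor that can dimerise with Mlx, fell in osmotic stress (13.4 to 3.11 TPM, -1.81), as did Mga (-1.22). The median of the 8 ran from -0.22 in glutamine depletion to 0.48 in ER stress, where that of all genes was -0.09 and 0.

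Of 8 genes of glucose entry and other described targets of MondoA and its relatives, 0 rose and 0 fell in glucose depletion, beside 1.83% and 2.41% of all genes compared. Their changes there ran from -0.27 to 0.33, with a median of 0.07 against -0.02 for all genes. In hypoxia 7 of the 8 rose, beside 3.57% of all genes compared, with a median of 1.82 against -0.05 for all genes. These included the glucose transporter genes Slc2a1 (58.4 to 428 TPM, 2.85) and Slc2a3 (3.39 to 17.4 TPM, 2.07) and the glycolytic regulator Pfkfb3 (10.4 to 86.4 TPM, 2.94), in a library where Txnip had a change of 0.37. Hexokinase 2 (Hk2) rose also in glutamine depletion (1.14) and ER stress (1.53), and Slc2a1 in oxidative stress (1.41). Klf10, a described target of ChREBP, fell in osmotic stress (21.8 to 7.75 TPM, -1.38), where Txnip fell.

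Thioredoxin itself, the binding partner of Txnip, varied little, with Txn1 between 260 and 324 TPM. Of the 4 genes of the thioredoxin system, thioredoxin reductase Txnrd1 rose in glutamine depletion (205 to 468 TPM, 1.19), in ER stress (to 617 TPM, 1.59) and in oxidative stress (to 634 TPM, 1.63), and none fell. The medians of these 4 ran from -0.14 in hypoxia to 0.59 in ER stress, against -0.05 and 0 for all genes. Of the 7 NEDD4-family ligases, the enzymes that alpha-arrestins recruit, 0 rose and 0 fell in any condition, beside shares of all genes between 1.83% and 11.0%, which with 7 genes says nothing particular to them. Their changes ran from -0.47 to 0.78, with medians from -0.06 in oxidative stress to 0.36 in ER stress, against -0.16 and 0 for all genes. Nedd4 was between 549 and 832 TPM in all libraries.

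Of the 3 other arrestin genes, Arrb1, a beta-arrestin, fell in ER stress (6.39 to 2.51 TPM, -1.07), where Arrdc1 had a change of -0.90. Its change in hypoxia was 0.96, beside 0.86 for Arrdc3. Arrb2 did not pass 2-fold, and Arrdc5 was listed at 0 in every library. The median of the 2 beta-arrestins ran from -0.88 in ER stress to 0.40 in hypoxia, against 0 and -0.05 for all genes. Of 6 AMPK subunit genes, which encode the energy sensor that phosphorylates Txnip, 5 passed the filter, and Prkab2 rose in glutamine depletion (10.3 to 24.8 TPM, 1.19) and oxidative stress (to 23.4 TPM, 1.11). The medians of the AMPK genes ran from -0.53 in ER stress to 0.15 in glucose depletion, against 0 and -0.02 for all genes.

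**Figure D5:**
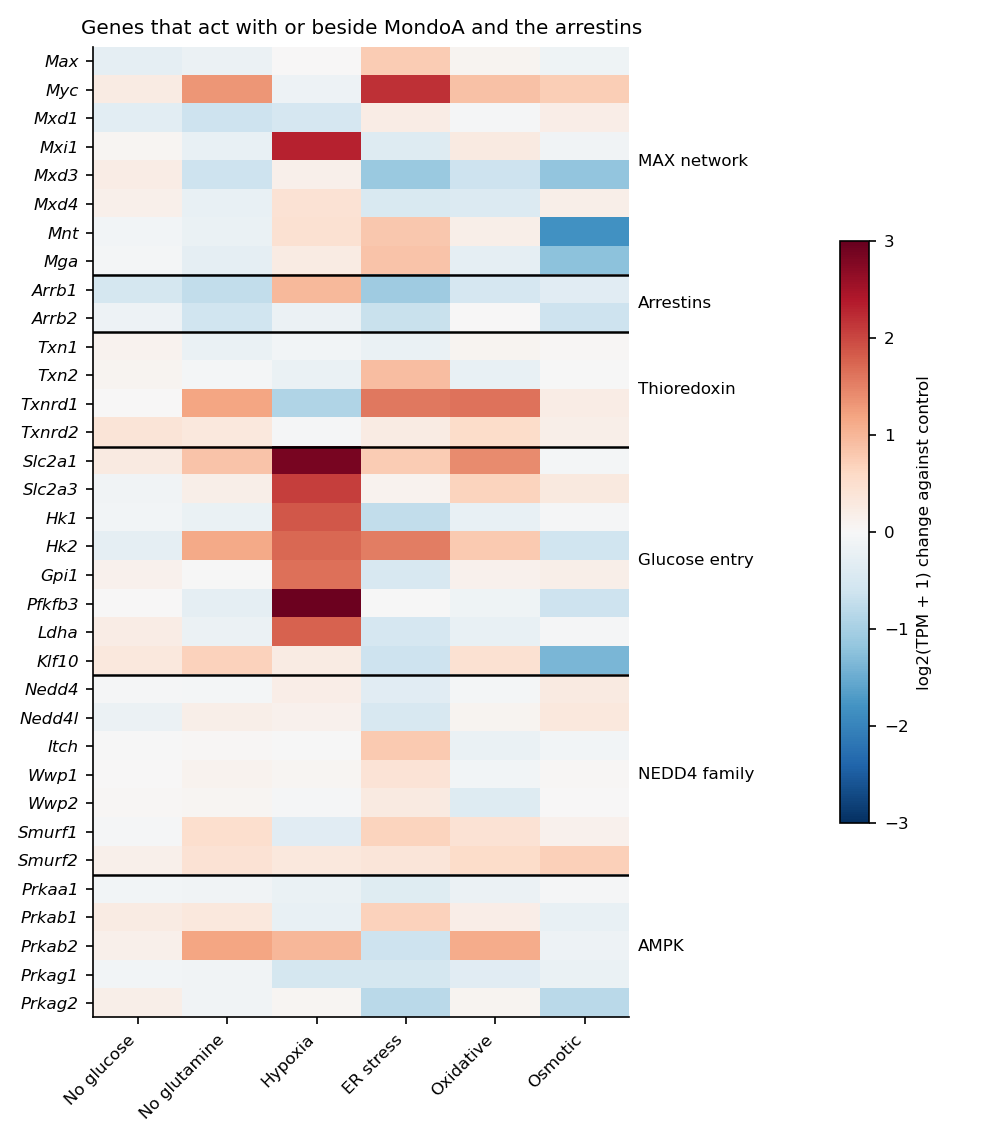
Change against the control on the log2(TPM + 1) scale (red higher, blue lower) of the 34 genes of the related lists that passed the expression filter, by condition. The column for glucose depletion is pale throughout, with no gene past 2-fold. In hypoxia 7 of the 8 genes of the glucose entry list rose, beside 3.57% of all genes compared. Mnt (-1.81), Klf10 (-1.38), Mga (-1.22) and Mxd3 (-1.18) fell in osmotic stress.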

How the data were processed

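Poly(A) RNA-seq libraries (TruSeq stranded mRNA, NextSeq, paired reads of 76 bases) were pseudoaligned by the authors with Kallisto (version 0.43.1 per the submitters' processing notes) at default settings to GRCm38 cDNA of Ensembl release 90, and the authors deposited gene-level TPM, adding up the transcripts of a gene. TPM keeps no depth, so the depth is unknown and no counting interval can be given. Every column totals 1000000 TPM, so a large rise of some genes lowers the share of the others.

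Samples were grouped by their labels. Changes were computed as log2(TPM + 1) minus the control, with the 2-fold rule of the study's methods, over those 12909 of 49382 genes whose mean was 2 TPM or higher. The 7 genes and the related lists were chosen with earlier results of these data known. Every list gene past 2-fold may be named, and the 5 genes most like Txnip were named by Pearson's r. Alternatives were pseudocounts of 0.1 and 5 TPM, centring on the median gene, 1.5-fold and 3-fold thresholds, no mitochondrially encoded genes, other expression filters (none, or a mean of 10 TPM), Spearman's rho, each library left out, and the median of the 5 other treated libraries as the reference. The sum of the Arrdc2 rows, the protein-coding background and leaving out glucose depletion together with osmotic stress were chosen after seeing the data. Gene types and positions came from GENCODE M21 on GRCm38, with 132 of the genes compared unmatched. The counting of genes past 2-fold was tested on simulated data, with larger changes put into well expressed genes. Changes near 2-fold and the correlations were not tested in this way. The software was Python 3.11.15 with pandas 2.3.3, numpy 2.4.6 and, for the plots, matplotlib 3.10.9.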

Additional observations from a re-analysis of the deposited data

How the results depend on the processing

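With 1 library per condition, nothing here measures the spread between cultures, and depth is unknown. No paired analysis was possible because no condition has a second library. Of 216 changes recomputed under the alternatives, 202 kept their side of 2-fold and 14 did not. No change past 2-fold reversed its sign, and 16 smaller ones did, all with centring, another reference or removal of mitochondrially encoded genes. The falls of Txnip in glucose depletion and osmotic stress and the rise of Arrdc4 in ER stress stayed past 2-fold under every alternative run.

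The number of genes past 2-fold moved as follows. A pseudocount of 5 TPM left 1 fallen gene in glucose depletion and 1 in osmotic stress, since it shrinks changes of low genes. A pseudocount of 0.1 TPM gave 2 risen and 1 fallen in ER stress. Centring on the median gene left 1 fallen in osmotic stress. A filter at a mean of 10 TPM left 2 fallen there, since Arrdc2 did not pass it. With the median of the other 5 treated libraries as the reference, 2 rose in hypoxia (Txnip 1.01, Arrdc3 1.22), 3 rose in ER stress (Txnip 1.40, Arrdc2 1.44 and Arrdc4) and 1 fell in osmotic stress. Summing the Arrdc2 rows gave 2 risen in ER stress, and all other alternatives used 1 Arrdc2 row. At a 1.5-fold threshold 1 rose and 1 fell in hypoxia, 3 rose and 1 fell in ER stress and 1 fell in oxidative stress, and at 3-fold 1 fell in glucose depletion and 1 in osmotic stress. The control library sets all main values, and the cause of the differences between references was not tested.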
